A study of Mus musculus with 4 samples.

Results

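The miR-17, miR-20, miR-93 and miR-106 family was followed through 4 small RNA libraries made after RNA immunoprecipitation for Argonaute2 (AGO2), the protein that carries mature miRNAs to their target RNAs. Its members were taken by exact name, from mmu-miR-17-5p to mmu-miR-106b-3p, as 10 of the 1900 mature miRNA names of the count table, 6 of them 5p arms and 4 of them 3p arms, the 2 strands cut from opposite sides of a hairpin. The tissue was the olfactory bulb of C57BL/6 mice, taken 8 weeks after injection. The GFP-AGO2 group (n = 2, replicates 1 and 3) had received the lentiviral vector LV.PGK.GFP-AGO2, and the Control group (n = 2, replicates 1 and 3) a sham injection without vector. The Control group therefore differed from GFP-AGO2 both in the AGO2 fusion protein and in the vector. The PGK promoter is active in many cell types, so the vector's promoter does not by itself limit the fusion protein to neurons. The sources used here name neither the antibody nor the site of injection, and whether Control libraries hold RNA on the mouse's own AGO2 or background of the procedure cannot be told apart. The labels do not state whether replicates were different mice, so a p-value here reflects spread from library to library that may be technical in origin.

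MiRNAs recognise targets mainly through the seed, bases 2 to 8 from the 5′ end, and miRNAs with the same seed can pair with largely the same target sites. The family is encoded in 3 paralogous clusters whose hairpins are cut from shared primary transcripts. The miR-17~92 cluster is known as an oncogenic cluster that promotes proliferation of progenitors, including neural progenitors, and the miR-106b~25 cluster lies within Mcm7, a gene for a subunit of the replicative helicase. In most hairpins 1 arm is kept by Argonaute and the other is degraded, and arm counts show which one was recovered.

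The 6 mature 5p arms are shown because the shared seed, in capitals, is what makes them a family and because the small differences after it are what assigns a read to 1 name (RefSeq, GRCm38.p6, all at the positions of the count table).
miR-17-5p: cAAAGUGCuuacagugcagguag
miR-20a-5p: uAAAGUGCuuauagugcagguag
miR-20b-5p: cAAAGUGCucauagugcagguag
miR-93-5p: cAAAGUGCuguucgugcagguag
miR-106a-5p: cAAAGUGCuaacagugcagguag
miR-106b-5p: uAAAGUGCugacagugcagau
Counted from the 5′ end, miR-106a-5p differs from miR-17-5p by the single substitution U10A, and miR-20b-5p by U10C and C12U. MiR-20a-5p differs from miR-17-5p by C1U and C12U, and miR-93-5p by U10G, A11U, C12U and A13C. A read that carries an error at these bases can therefore be placed on the wrong member. No source used here gives the mismatches allowed in alignment. Of the 1679 mature mouse names in the sequence table, 1 other, miR-6383, has the same seed, and it had 0 counts in the 4 libraries.

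The 3p arms do not share that seed, and their own seeds, again in capitals, differ from each other.
miR-17-3p: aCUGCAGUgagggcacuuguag
miR-20a-3p: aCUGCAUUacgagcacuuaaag
miR-93-3p: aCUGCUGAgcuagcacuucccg
miR-106b-3p: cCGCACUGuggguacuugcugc

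In mm10, miR-17-5p (chr14:115043684-115043706, plus strand) and miR-20a-5p (chr14:115044183-115044205) lie in an exon of Mir17hg, the non-coding host of miR-17~92. On the minus strand of chromosome 5, miR-106b-5p (chr5:138165787-138165807) and miR-106b-3p (chr5:138165746-138165767) lie in an intron of Mcm7. MiR-93-5p (chr5:138165574-138165596) lies in a stretch of Mcm7 that GENCODE M21 lists as exonic only in a retained-intron transcript. MiR-20b-5p (chr X, 52742159 to 52742181) and miR-106a-5p (chr X, 52742541 to 52742563) lie on the minus strand of the X chromosome, in no annotated gene besides their own hairpins. None of the 10 names overlaps another name of the table.

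The libraries held 673916 to 2809758 miRNA counts, with 714 to 843 names detected in each. Of the 457 miRNAs that passed the filter on low counts, 79 were higher and 78 lower in GFP-AGO2 at an adjusted p under 0.05 in edgeR's quasi-likelihood test. The neuronal markers of a fixed list were present in all libraries, at summed levels of 13686 and 16239 CPM (the usual depth-scaled count unit, here on TMM-scaled library sizes) in Control and 17772 and 15580 CPM in GFP-AGO2, with 2 of 7 higher and 1 lower. The 9 names listed as epithelial markers (miR-200 family, miR-183 cluster and miR-205-5p) were in sum much lower in GFP-AGO2. They summed to 245353 and 255687 CPM in Control and 24192 and 45583 CPM in GFP-AGO2, and all 8 tested were lower. Which cells these counts came from was not tested, and the names alone do not place them in epithelium. Markers of vessels, blood and immune cells summed to 5117 and 3977 CPM in Control and 340 and 1538 CPM in GFP-AGO2, and 3 of 5 tested were lower. Of the 12 names in that list, miR-126a-3p, miR-126a-5p and miR-142-3p were listed at 0 in every library, and each of these overlaps another name of the table.

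The family made up a small part of each library, and a larger one in GFP-AGO2. Its 6 5p arms together took 302 of the miRNA counts of Control replicate 1 and 190 of those of Control replicate 3, or 0.0300% (95% exact Clopper-Pearson interval 0.0267 to 0.0336) and 0.0282% (0.0243 to 0.0325). In GFP-AGO2 they took 1749 and 1129 counts, or 0.0622% (0.0594 to 0.0652) in replicate 1 and 0.0608% (0.0573 to 0.0644) in replicate 3. Such intervals cover the counting error of reads only and leave out the spread between libraries. The reads carry no stated molecular identifiers and PCR duplicates are included, so the error of counting molecules may be larger. The 2 GFP-AGO2 libraries lay close together and well above both Control libraries, with means of 0.0615% ± 0.00106 and 0.0291% ± 0.00127 (SD, n = 2 each), a ratio of 2.11. The exact two-sided permutation test gave p = 0.33, the smallest value that 2 libraries against 2 allow. Part of any share moves with the miRNAs listed as epithelial, which took far more of the Control counts. The counts of the miR-200 family and miR-183 cluster were then left out of the denominator. The share was 0.0394% and 0.0368% in Control and 0.0639% and 0.0640% in GFP-AGO2, a ratio of 1.68, and the groups still did not overlap.

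The plot of member levels shows where the counts lay.

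**Figure D1:**
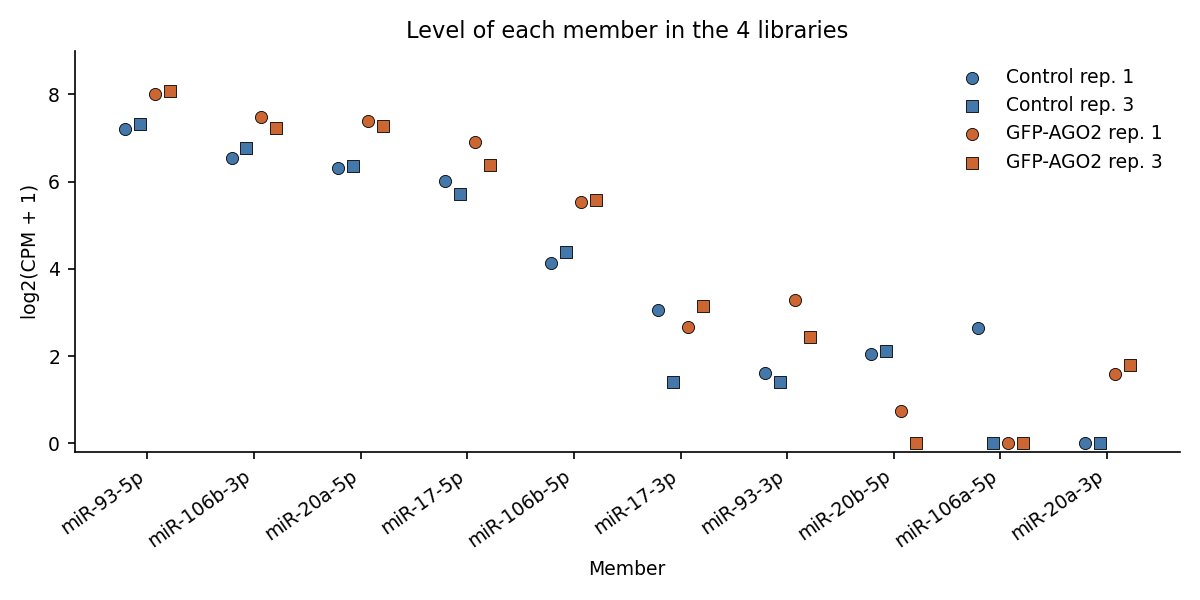
Level of each of the 10 members, as log2(CPM + 1), in the 4 libraries (blue, Control; orange, GFP-AGO2; circles, replicate 1; squares, replicate 3), ordered by mean level. The 5 members on the left have both orange points above both blue ones, whereas miR-20b-5p and miR-106a-5p have their counts mostly in Control and lie near the bottom.

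All 10 members had at least 1 count, but only 5 passed the filter, which asks for about 10 counts in a library of median size in at least 2 libraries. These were miR-17-5p, miR-20a-5p, miR-93-5p, miR-106b-5p and miR-106b-3p, and each passed it in both libraries of both groups. The tested 5p arms and miR-106b-3p all had a higher level in GFP-AGO2, and 3 of the 5 rose by the edgeR test while none fell, beside 17.3% of all tested miRNAs called higher and 17.1% called lower. Of the 5 tested members, none had a lower level at an unadjusted edgeR p under 0.05, and none was called lower by edgeR or DESeq2. MiR-20b-5p and miR-106a-5p, which were not tested, had more counts in Control and are described below. The groups did not overlap, with GFP-AGO2 above, for 5 of the 5, against 36.8% of all tested miRNAs. The members' median log2 fold change was 0.80, and that of all 457 was -0.01. These are few members, chosen with earlier results known, and they share clusters, so the count describes them and is no test of the family.

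Among the members of the miR-17~92 cluster, mmu-miR-20a-5p rose. It had 79.0 and 80.9 CPM in Control replicates 1 and 3 and 167 and 154 CPM in GFP-AGO2 replicates 1 and 3. The groups lay far apart compared with the gap between replicates. Its log2 fold change, GFP-AGO2 over Control, was 1.00 (SE 0.19, edgeR adjusted p = 0.0138), a fold of 2.01 with a 95% interval of 1.43 to 2.82. MiR-17-5p, which gives the cluster its name, had 63.4 and 51.2 CPM in Control and 118 and 82.9 CPM in GFP-AGO2. Its groups did not overlap either, but its GFP-AGO2 replicates stood further apart than those of any other tested member. Its log2 fold change of 0.80 (SE 0.29) did not pass the test (edgeR adjusted p = 0.0887), with a 95% interval for the fold of 1.05 to 2.91. Without GFP-AGO2 replicate 3 the value was 1.03 and was called (adjusted p = 0.0172), and without GFP-AGO2 replicate 1 it was 0.52 (adjusted p = 0.349).

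In the miR-106b~25 cluster, mmu-miR-93-5p was the most abundant member in every library. It had 147 and 158 CPM in Control and 258 and 270 CPM in GFP-AGO2, at ranks 142 to 180 among all names by count. It rose by 0.79 on the log2 scale (SE 0.16, edgeR adjusted p = 0.0167), a fold of 1.73 with a 95% interval of 1.30 to 2.32. MiR-106b-5p had 16.6 and 19.8 CPM in Control and 45.1 and 46.6 CPM in GFP-AGO2. Its replicates differed little and its groups did not overlap, and the Control values rest on 16 and 12 counts. It had the highest log2 fold change of the 5, 1.34 (SE 0.33, edgeR adjusted p = 0.0304), with a wide 95% interval for the fold, 1.41 to 4.55. DESeq2 gave 1.34 with an adjusted p = 0.0848, and miR-106b-5p was not called in that fit, where 18.1% of miRNAs were called higher. Nor was it called with the replicate number as a block (1.34, adjusted p = 0.0704). MiR-106b-3p, from the other side of the same hairpin, had 92.5 and 109 CPM in Control and 178 and 149 CPM in GFP-AGO2. Its groups did not overlap, and its log2 fold change of 0.71 (SE 0.21) had an edgeR adjusted p = 0.0541. MiR-106b-3p passed in edgeR with names of several positions left out (0.72, adjusted p = 0.0499), with total counts alone, no scaling or no filter. It missed the threshold in DESeq2 (0.71, adjusted p = 0.105). In edgeR it also missed with the replicate number as a block (0.70, adjusted p = 0.0773). The same held for the filter at 50 counts (0.62, adjusted p = 0.0622). Its estimate ranged from 0.57 to 0.83 as each library in turn was dropped.

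Each of the 3 calls depended on having both Control libraries. Without Control replicate 1, miR-20a-5p had 1.04 (adjusted p = 0.0508), miR-93-5p 0.79 (adjusted p = 0.0684) and miR-106b-5p 1.26 (adjusted p = 0.108). Without Control replicate 3 they had 0.98, 0.81 and 1.42, with adjusted p-values of 0.0561, 0.0573 and 0.0724. The fold changes thus moved little. Calls over all miRNAs also fell without either Control library, so the loss of calls was not particular to the members. MiR-106b-5p also missed the threshold without either GFP-AGO2 library, at 1.36 (adjusted p = 0.0511) and 1.32 (adjusted p = 0.0533). A fit with 1 library in a group takes that library to vary like those of the other group. The summed names listed as epithelial and the summed vessel, blood and immune markers given above were lower in the same GFP-AGO2 libraries. Their part in these differences was not tested.

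The plot of fold changes sets the members beside the other arms cut from the same clusters.

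**Figure D2:**
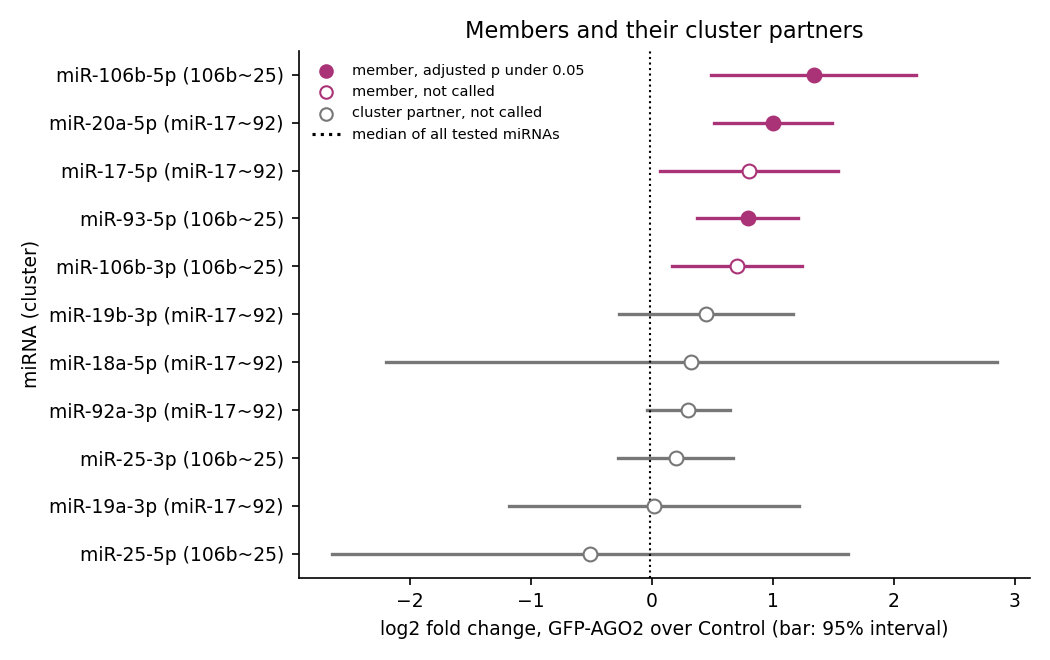
Log2 fold change, GFP-AGO2 over Control, with its 95% interval, for the 5 tested members and the 6 tested cluster partners; filled points passed an edgeR adjusted p under 0.05 and the dotted line is the median of all 457 tested miRNAs (-0.01). The members lie between 0.71 and 1.34, and the partners between -0.51 and 0.45.

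The cluster partners did not show a change that passed the test. Of 18 partner arms, 8 had no count in any library and 6 were tested. None was called higher or lower by DESeq2 or by the main edgeR fit. In that edgeR fit 17.3% of all tested miRNAs were called higher and 17.1% lower. So few names cannot show a departure from these shares. None had an unadjusted edgeR p under 0.05, and their median log2 fold change was 0.25. The groups did not overlap, with GFP-AGO2 above, for 2 of the 6, against 36.8% of all tested miRNAs. MiR-92a-3p, the most abundant product of the cluster, had 1650 and 1763 CPM in Control and 2022 and 2189 CPM in GFP-AGO2. Its groups did not overlap, but the log2 fold change was 0.30 (SE 0.14, edgeR adjusted p = 0.142). In edgeR it was called with total counts alone (0.52, adjusted p = 0.0393) and with no filter (0.54, adjusted p = 0.0279). MiR-19b-3p had 46.8 and 67.7 CPM in Control and 78.1 and 76.5 CPM in GFP-AGO2 (0.45, SE 0.28, edgeR adjusted p = 0.274). Both names have 2 positions, on chromosomes 14 and X, so their cluster of origin is uncertain. MiR-19a-3p lay at 11.4 to 16.5 CPM in the 4 libraries with a log2 fold change of 0.02. MiR-25-3p lies in the same cluster within Mcm7 as miR-93 and miR-106b. It had 437 and 362 CPM in Control and 503 and 415 CPM in GFP-AGO2. The groups overlapped (log2 fold change 0.20, SE 0.19, edgeR adjusted p = 0.454). MiR-18a-5p and miR-25-5p had few counts and log2 fold changes of 0.33 and -0.51 with wide intervals.

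Ratios of counts within a library need no scaling between libraries, and they show how members stood against partners listed for the same cluster. MiR-92a-3p and miR-19b-3p also have a position on chromosome X, so their ratios are not known to lie within a single transcript. For each count of miR-25-3p there were 0.336 and 0.438 counts of miR-93-5p in Control and 0.513 and 0.652 in GFP-AGO2. For miR-106b-5p the same ratio was 0.0381 and 0.0548 in Control and 0.0897 and 0.112 in GFP-AGO2, a log2 difference of 1.14. The groups did not overlap in either ratio. MiR-20a-5p stood at 0.0479 and 0.0459 of miR-92a-3p in Control and at 0.0824 and 0.0704 in GFP-AGO2, a log2 difference of 0.70, again without overlap. The ratio of miR-17-5p to miR-92a-3p was 0.0384 and 0.0290 in Control and 0.0584 and 0.0379 in GFP-AGO2, so these groups overlapped. Of 7 such ratios computed, 5 were higher in both GFP-AGO2 libraries than in either Control library. In these the exact permutation p was 0.33, the smallest possible, so a difference between members and partners is not shown by a test. The ratios share denominators and were added after seeing the data, and the share over other pairs of miRNAs was not computed.

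Within the family the order of the 4 abundant 5p arms was the same in all 4 libraries, as the plot of their make-up shows.

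**Figure D3:**
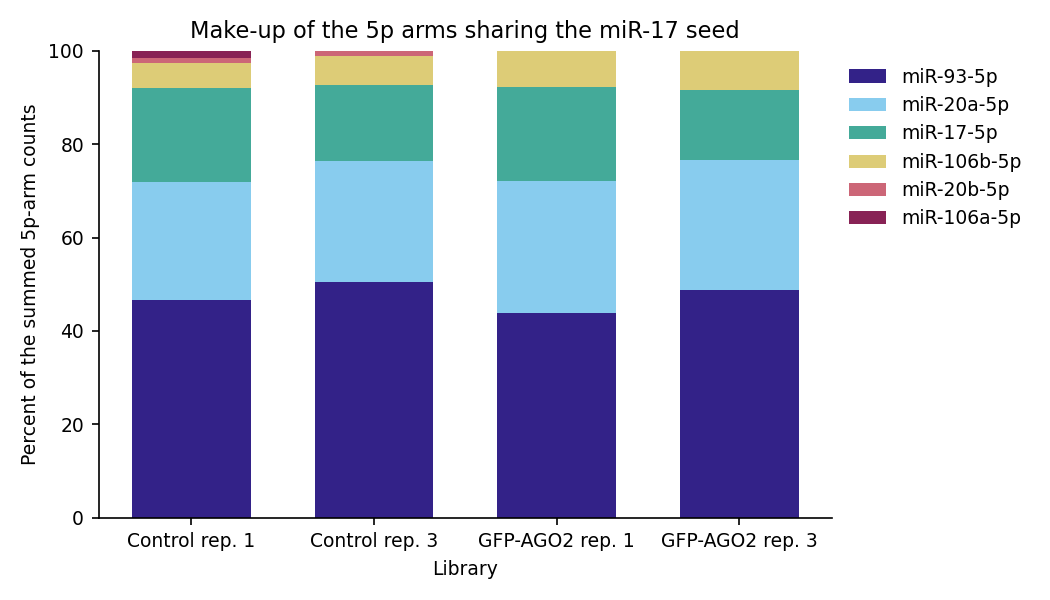
Each 5p arm as a percent of the summed counts of the 6 5p arms, per library. MiR-93-5p is the largest part in each bar (43.9% to 50.5%), followed by miR-20a-5p (25.2% to 28.3%), and miR-20b-5p and miR-106a-5p reach at most 1.66% of a bar.

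MiR-93-5p took 46.7% and 50.5% of the summed 5p counts in Control and 43.9% and 48.8% in GFP-AGO2. MiR-17-5p took 20.2% and 16.3% in Control and 20.1% and 15% in GFP-AGO2. For both of these arms the groups overlapped, and replicate 1 and replicate 3 of a group differed by more than the group means. MiR-20a-5p took 25.2% and 25.8% in Control and 28.3% and 27.8% in GFP-AGO2, and miR-106b-5p 5.30% and 6.32% against 7.66% and 8.41%. The groups of these 2 arms did not overlap, at the smallest possible exact permutation p = 0.33. The counting intervals of their Control shares (20.4 to 30.5% for miR-20a-5p and 3.06 to 8.46% for miR-106b-5p in replicate 1) reach the GFP-AGO2 values, so a shift of these 2 arms was not detectable at this depth. MiR-20b-5p, with 3 and 2 counts in Control, took 0.993% (95% exact interval 0.205 to 2.88) and 1.05% (0.128 to 3.75) there and 0.114% (0.0139 to 0.412) and 0% (up to 0.326) in GFP-AGO2. Its groups did not overlap either, at the same exact permutation p = 0.33. Its Control intervals lie above the GFP-AGO2 shares themselves but overlap the intervals of those shares. By level in CPM, miR-106b-3p stood between miR-93-5p and miR-20a-5p in Control, with no overlap of either neighbour. In GFP-AGO2 miR-106b-3p (149 to 178 CPM) and miR-20a-5p (154 to 167 CPM) could not be ordered. These are counts per name and are not divided by length, since a read spans a whole mature miRNA.

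The hairpins differed in which arm was recovered. Those of miR-106b and miR-17 are shown because miR-106b was recovered mostly as its 3p arm and miR-17 mostly as its 5p arm, with the 5p and then the 3p arm in capitals (RefSeq, GRCm38.p6, chr5:138165737-138165818, minus strand, and chr14:115043671-115043754, plus strand).
Mir106b: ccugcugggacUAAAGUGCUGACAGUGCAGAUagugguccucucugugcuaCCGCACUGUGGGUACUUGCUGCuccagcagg
Mir17: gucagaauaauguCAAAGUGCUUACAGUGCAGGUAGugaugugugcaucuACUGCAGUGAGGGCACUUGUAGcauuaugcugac

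**Figure D4:**
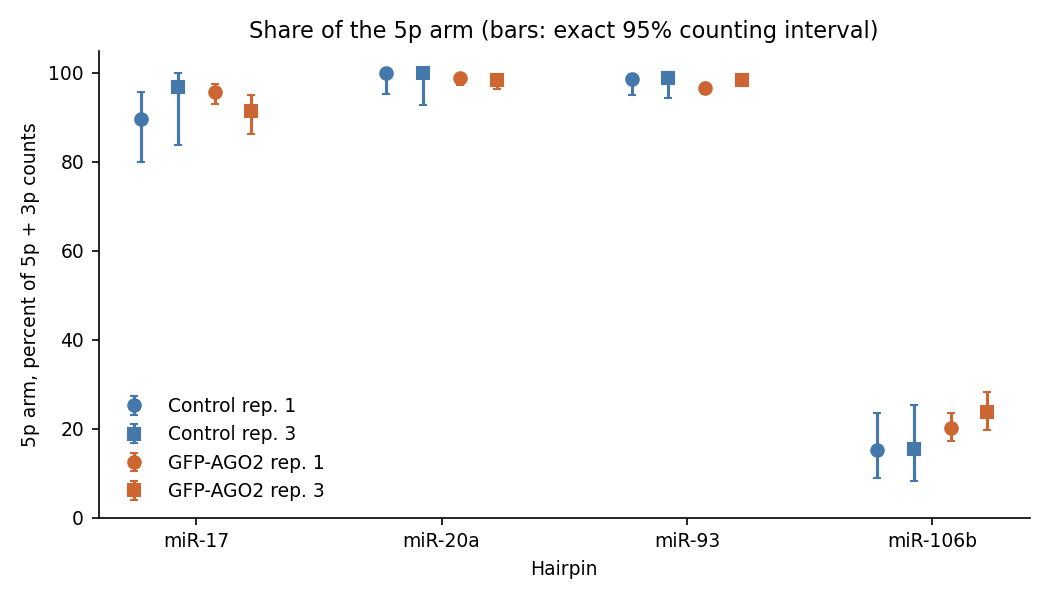
Percent of a hairpin's counts that came from its 5p arm, per library, with exact 95% counting intervals. The miR-17, miR-20a and miR-93 hairpins lie above 89% in all 4 libraries, and miR-106b lies between 15.2% and 23.8%.

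For miR-106b the 3p arm, which lacks the family seed, was the more abundant in every library. The 5p arm made up 15.2% (95% exact interval 8.97 to 23.6) and 15.4% (8.21 to 25.3) of its counts in Control and 20.2% (17.2 to 23.5) and 23.8% (19.7 to 28.3) in GFP-AGO2. The groups did not overlap, with a difference in log2 arm ratio of 0.60 and an exact permutation p = 0.33, but the counting intervals did. In the miR-17 hairpin the 5p arm made up 89.7% and 96.9% in Control and 95.6% and 91.4% in GFP-AGO2, and the groups overlapped. In the miR-93 hairpin it made up 98.6% and 99% in Control and 96.7% and 98.4% in GFP-AGO2. In the miR-20a hairpin it made up 100% in both Control libraries, where the 3p arm had 0 counts, and 98.8% and 98.4% in GFP-AGO2. The sign of the difference in log2 arm ratio for miR-20a and miR-93 turned with the number added to each count, so no direction is given for them.

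The 3 passenger arms with few counts were not tested. MiR-93-3p had 2 and 1 counts in Control and 26 and 9 in GFP-AGO2, all 4 libraries together giving a ratio of pooled CPM of 3.65 with a counting interval of 1.15 to 18.6. MiR-17-3p had 7 and 1 counts in Control and 16 and 16 in GFP-AGO2, a pooled ratio of 1.25 with a counting interval of 0.565 to 3.14. MiR-20a-3p had 0 counts in both Control libraries and 6 and 5 in GFP-AGO2, and the counting interval of its pooled ratio, which has no upper limit, starts at 0.785. The interval of miR-93-3p lay above 1 while those of miR-17-3p and miR-20a-3p included 1, and all cover counting error only.

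The X-linked members stood apart from the rest of the family, at or near the limit of detection. MiR-20b-5p had 3 and 2 counts in Control, against 2 and 0 in the deeper GFP-AGO2 libraries. The pooled ratio of GFP-AGO2 to Control was 0.125, with a counting interval of 0.0119 to 0.765. MiR-106a-5p had 5 counts in Control replicate 1 and 0 in the other libraries. For a count of 0 the upper limit, taken as 3 counts, was 1.01 CPM in GFP-AGO2 replicate 1 and 1.47 CPM in GFP-AGO2 replicate 3. In Control replicate 3 it was 4.95 CPM, close to the 5.20 CPM of Control replicate 1. Over all 10 single-position arms of the X-linked cluster that starts with miR-106a, Control held 12 and 6 counts. GFP-AGO2 held 3 and 0. MiR-363-3p, the last hairpin of that cluster, gave 3, 4, 1 and 0 of these counts. The groups of the summed counts did not overlap, but the share of other low names that separate this way was not computed. With 1 and 2 base differences from miR-17-5p, the assignment of these few reads to miR-106a-5p and miR-20b-5p is uncertain.

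Outside the family, the miRNAs whose levels over the 4 libraries were most like those of miR-93-5p and of miR-17-5p were sought; the other members were not searched in this way. The likeness was measured as the Euclidean distance between log2 CPM profiles, each centred on its own mean over the 4 libraries, which carry the same scaling factors. Nearest to miR-93-5p outside the family were miR-30d-5p (distance 0.09), miR-30b-5p (0.10), miR-222-3p (0.10), miR-384-3p (0.15) and miR-340-5p (0.15), while miR-20a-5p lay at 0.25 and miR-17-5p at 0.50. Nearest to miR-17-5p outside the family were miR-130b-5p (0.14), miR-3102-3p.2-3p (0.18), miR-493-5p (0.21), miR-539-5p (0.27) and miR-101a-3p (0.32), ahead of miR-20a-5p (0.42). MiR-130b-5p had 195 and 168 CPM in Control and 335 and 251 CPM in GFP-AGO2, with replicate 1 above replicate 3 in both groups, as for miR-17-5p. With 4 libraries many miRNAs share a profile, and the distances describe likeness only.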

How the data were processed

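Whole-number counts per mature miRNA name were deposited by the authors as 1 table. Per the file headers, the program was featureCounts v1.4.6-p1, run without a strand option on primary alignments and an mm10 miRNA annotation. The submitters' processing notes name cutadapt and STAR. Columns were tied to samples by title. GFP-AGO2 was compared with Control in edgeR 4.0.16, under R 4.3.3 (two-sided quasi-likelihood F test, TMM scaling, filterByExpr at a minimum count of 10, Benjamini-Hochberg adjustment over 457 miRNAs, called at 0.05), which kept 99.88% to 99.93% of counts. CPM are counts over the TMM-scaled library size. SE is the log2 fold change over the root of F. Shares and ratios were compared by exact permutation tests, and arm ratios had 0.5 added to each count. DESeq2 1.42.0 was an alternative. The fit was tested on simulated data. The named miRNAs are all members, the tested cluster partners, names with the miR-17 seed and the 5 nearest profiles to miR-17-5p and to miR-93-5p. Members and lists were chosen with earlier results of these data known. Replicates differed by more than counting noise (chi-square 4564 on 383 degrees of freedom in Control, 47711 on 475 in GFP-AGO2).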

Additional observations from a re-analysis of the deposited data

How the results depend on the processing

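The 5 tested members were higher in GFP-AGO2 under every alternative run, with median log2 fold changes from 0.72 (filter at 50 counts) to 2.50 (no scaling, under which the median over all miRNAs was 1.67). Members called higher were 5 of 5 with total counts alone (100 of 457 miRNAs were then called higher) and with no scaling (264 of 457), and 5 of 10 with no filter (118 of 1106). They were 0 to 4 when 1 library was left out, 0 without either Control library. Partners called higher were 1, 3 and 1 with total counts alone, no scaling and no filter. Over all miRNAs, no scaling gave 284 calls, of which 20 were lower, and leaving out 1 library gave 90 to 200 calls, against 157 with all libraries.

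Values that changed sign were these, none of them called. With no scaling miR-25-5p had a log2 fold change of 1.22. The log2 arm ratio difference was -0.11 for miR-17 with no pseudocount, and 1.53 for miR-20a and 0.75 for miR-93 with 5 added to each count, where the Control 3p counts lie below the number added. With no pseudocount miR-20a gave no value. Leaving out 1 library gave log2 fold changes of -0.48 to 1.44 for miR-18a-5p, -0.19 to 0.25 for miR-19a-3p and -1.28 to 0.79 for miR-25-5p. The same ranges were -3.29 to 1.81 percentage points for the part of miR-17-5p among the 5p arms, -4.75 to 0.197 for that of miR-93-5p, -0.51 to 0.85 for the log2 arm ratio difference of miR-17 and -0.082 to 0.76 for the log2 ratio of miR-17-5p to miR-19b-3p. The ratios to cluster partners were added after seeing the data. The part of miR-106a-5p had no value without Control replicate 1, its only library with counts.

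Libraries share only a replicate number: deviations of same-numbered libraries correlated at -0.06. With the replicate block 79 miRNAs were called higher and 85 lower, and 2 members higher. The members' low counts in Control limit the precision.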
